A study of Homo sapiens with 6 samples.

Results

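The subject is the OE33 cell line after transfection with an siRNA against PPARG (siPPARG), set against the same line with a non-silencing siRNA (control). OE33 was derived from a human esophageal adenocarcinoma. The members were chosen by level alone: the OE33 count table lists 37493 gene identifiers, and the 10527 genes that reached 5 CPM in the control, in siPPARG or in both are called kept genes here. CPM are counts scaled to a common library total. CCDC189 stood just inside that limit with 5.02 CPM in the control and 3.81 CPM in siPPARG, and ZSCAN12 just outside it with 3.78 CPM and 4.97 CPM.

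The series holds 4 RNA-seq libraries, control and siPPARG in OE33 and in a second esophageal adenocarcinoma line, Eso26, besides PPARG ChIP-seq peak lists that were not used here. Its title places PPARG in a loop of lineage factors and lipid production. Both OE33 groups were transfected with Lipofectamine RNAiMAX and grown in DMEM with fetal bovine serum, penicillin and streptomycin, so they share reagent and medium. The time between transfection and harvest, the number of siRNAs in the reagent and the sequence of each were not given in the sources used here. The design text speaks of triplicates, yet the OE33 table has 1 column per condition, so no spread between cultures can be estimated. Every difference below therefore describes 2 libraries: it carries no test and no replicate check, and an effect of PPARG loss, an effect of the siRNA itself and a difference between dishes cannot be told apart.

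PPARG is a ligand-activated nuclear receptor that binds DNA as a partner of a retinoid X receptor (RXR) and is best known as the driver of fat cell formation. Its ligands include fatty acids and their oxidised derivatives, and its targets hold genes of fatty acid uptake, storage and breakdown. In epithelia it is known for a role in differentiation, and in macrophages and epithelial cells its activation is known to hold back inflammatory genes.

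The 2 OE33 libraries were close in depth and composition. They held 16866996 counts (control) and 18163767 counts (siPPARG), and a count of 3 corresponds to 0.177 CPM and 0.166 CPM. Transcripts of the mitochondrial genome took 0.533% of the counts in the control and 0.664% in siPPARG, and ribosomal protein genes 4.19% and 3.99%. All 9 epithelial markers were kept, with a summed level of 10039 CPM and 9636 CPM. Of 10 immune markers only CD14 was kept, with a sum of 8.92 CPM and 9.11 CPM over the list and with CD3E, CD3D, MS4A1 and NKG7 at 0 in both libraries. No fibroblast, endothelial or fat cell marker was kept, and the highest of their sums, that of fibroblast markers in siPPARG, was 4.97 CPM. In bulk RNA, fewer cells with a transcript and less of it per cell cannot be told apart.

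PPARG itself (ENSG00000132170), the target of the siRNA, had the lowest log2 fold of all 10527 kept genes. It held 2156 counts in the control and 313 in siPPARG, or 127 CPM and 17.3 CPM, a ratio of 0.136 (interval 0.120 to 0.153). Intervals of a ratio here are exact 95% counting intervals from the counts of both libraries and leave out the spread between cultures. The related receptors PPARA and PPARD differed from each other in direction. PPARA, a driver of fatty acid breakdown, stood at 79.0 CPM and 71.9 CPM, 0.910 times the control (interval 0.842 to 0.983). PPARD, which is widely expressed, stood at 184 CPM and 272 CPM, 1.48-fold the control (interval 1.41 to 1.55). The DNA-binding partners RXRA and RXRB lay close to the control, with ratios of 0.941 (interval 0.887 to 0.998) and 0.965 (interval 0.854 to 1.09). Among 10 kept coactivators and corepressors, 5 were higher and 5 lower, and none passed 1.5-fold. The lowest of these were NCOA2, a coactivator, with a ratio of 0.799 (interval 0.720 to 0.886) and PPARGC1B, a coactivator of mitochondrial genes, with 0.811 (interval 0.689 to 0.954).

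Differences past 2-fold were few and leaned to the higher side. In siPPARG, 110 kept genes were higher past 2-fold (1.04% of the kept genes) and 44 lower (0.418%), with 154 (1.46%) in all. At 1.5-fold the counts were 343 higher (3.26%) and 251 lower (2.38%). Past 3-fold there were 36 higher (0.342%) and 12 lower (0.114%). At any size, 48.7% of kept genes were higher and 51.3% lower. Counts of higher or lower list members below are to be read beside these shares. A count near them says nothing particular about its list. The median log2 fold over all kept genes was -0.0075, and the central 90% of genes lay between -0.45 and 0.48. Genes of the interferon response made up 45 of the 110, and no gene of the mitosis list was among the 154, so 65 higher and all 44 lower genes lay outside both lists. Of the 110, 33 passed the level filter through siPPARG alone, and of the 44, 10 passed through the control alone, so these had to differ to be kept. The counting interval lay wholly past 2-fold for 70 of the higher and 28 of the lower genes.

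The share of genes past 2-fold depended on level. With the kept genes split by mean level into 5 classes of equal size, 2.90% of the lowest class, at 2.99 to 15.9 CPM, were past 2-fold. In the next classes the shares were 1.33%, 0.808%, 1.09% and, for genes from 118 CPM upward, 1.19%. The share whose interval left out a ratio of 1 ran the other way, from 32.1% in the lowest class to 72.9% in the highest, since deep counts give narrow intervals. Such an interval shows only that 2 libraries differed beyond counting error.

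**Figure D1:**
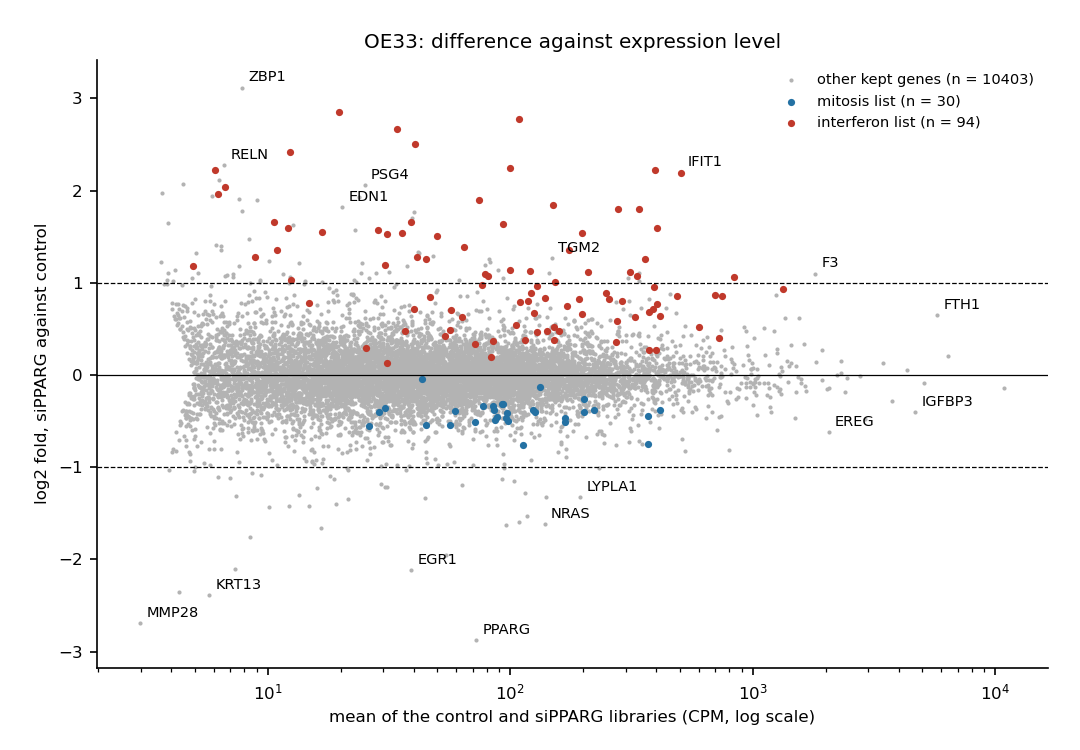
Log2 fold of siPPARG against control in OE33 (vertical axis) against the mean CPM of both libraries (horizontal axis, log scale) for 10527 kept genes, each a point, with the interferon list in red, the mitosis list in blue and dashed lines at 2-fold. PPARG lies lowest at -2.87 and ZBP1 highest at 3.12, and the 30 mitosis genes lie between -0.76 and -0.05.

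Below PPARG, the genes with the lowest ratios included MMP28, KRT13 and CST4. MMP28, a secreted metalloprotease of epithelia, held 89 counts in the control and 13 in siPPARG, a ratio of 0.137 (interval 0.0700 to 0.246). KRT13, a keratin of the squamous mucosa of the esophagus, held 165 and 32 counts, a ratio of 0.181 (interval 0.120 to 0.266). These are low-level genes, at 5.26 CPM and 9.75 CPM in the control, and their intervals are wide. MMP28, KRT13 and CST4 passed the level filter through the control alone, so they had to be lower to be kept. CST4 and CST1, neighbouring genes for secreted inhibitors of cysteine proteases, were both lower. CST4 had 7.27 CPM and 1.33 CPM, a ratio of 0.182 (interval 0.113 to 0.284), and CST1 had 27.8 CPM and 10.4 CPM, a ratio of 0.375 (interval 0.315 to 0.445). PSCA, a small surface protein of the LY6 family found in the gastric epithelium, stood at 63.9 CPM and 25.4 CPM, 0.397 times the control (interval 0.355 to 0.443). ANXA10, an annexin of the gastric epithelium, stood at 201 CPM and 80.2 CPM, 0.399 times the control (interval 0.375 to 0.424). HAS3, which makes hyaluronan for the cell coat, showed 163 CPM and 67.3 CPM, a ratio of 0.413 (interval 0.386 to 0.442).

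The cell surface adhesion proteins CEACAM5 and CEACAM6, used as tumour markers, were lower while CEACAM1 was higher. CEACAM5 stood at 86.6 CPM and 22.3 CPM, a ratio of 0.257 (interval 0.230 to 0.287), and CEACAM6 at 163 CPM and 53.9 CPM, a ratio of 0.330 (interval 0.306 to 0.355). CEACAM1, an inhibitory receptor of the same family, stood at 4.85 CPM and 8.56 CPM, 1.77-fold the control (interval 1.34 to 2.34). It passed the level filter through siPPARG alone, so it had to be higher to be kept. The related PSG4 stood at 9.69 CPM and 40.7 CPM, 4.20-fold (interval 3.54 to 5.0). These genes resemble each other in sequence, as do CST1 and CST4, SAA1 and SAA2, MT1E and MT2A, the HLA genes and the histone genes. The treatment of reads shared between copies is unknown here, so the split within each family is uncertain.

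Among signalling genes, the immediate early factor EGR1 had the lowest ratio. EGR1, which growth factor signalling switches on within minutes, stood at 63.5 CPM in the control and 14.6 CPM in siPPARG, 0.230 times the control (interval 0.200 to 0.263). The RefSeq promoter window of EGR1 (250 bases before to 50 after the start, GRCh38.p14) holds 2 copies of the core serum response element, the type of site through which growth factor signals are known to reach this gene. The core was searched on both strands as CC and GG with 6 bases between them, each of them A or T. The stretch around both copies, chr5:138465344-138465435 on the plus strand, is shown with the cores in capitals, 105 and 83 bases before the start.
EGR1: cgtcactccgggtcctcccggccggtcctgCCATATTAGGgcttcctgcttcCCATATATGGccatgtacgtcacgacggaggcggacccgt
Of 35116 such windows, 1.29% hold the core, as do 1.56% of the 8632 kept genes matched to a window. Among matched genes past 2-fold, 2 of 30 lower and 3 of 76 higher genes hold it.

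NRAS, a small GTPase that relays growth factor signals, stood at 209.5 CPM and 68.3 CPM, a ratio of 0.326 (interval 0.305 to 0.348). Of the 12 kept genes of the RAS and RAF group, NRAS alone passed 1.5-fold. MAPK3, the kinase ERK1, lay at 0.947 times the control (interval 0.873 to 1.03). Of 14 kept immediate early and target genes, 9 were lower, 4 of them past 1.5-fold. Over all kept genes these shares were 51.3% and 2.38%. The 14 genes had a median log2 fold of -0.29. JUNB, an AP-1 subunit, stood at 161 CPM and 103 CPM, a ratio of 0.637 (interval 0.600 to 0.676), and the ERK phosphatase DUSP6 at 87.0 CPM and 53.7 CPM, a ratio of 0.617 (interval 0.568 to 0.669). Against these, ATF3, a stress-induced factor of the same group, stood at 16.4 CPM and 26.9 CPM, 1.64-fold the control (interval 1.42 to 1.91). SPRY1, a feedback inhibitor, was also higher at 1.68-fold (interval 1.37 to 2.06). Over the whole list of 41 kept genes, 20 were higher and 21 lower.

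Other regulators lower past 2-fold belonged to different pathways. PRKACB, a catalytic subunit of the cAMP-dependent kinase, stood at 13.2 CPM and 3.81 CPM, a ratio of 0.289 (interval 0.218 to 0.381), the only one of 26 kept cAMP genes past 2-fold. PRKACB passed the level filter through the control alone, so it had to be lower to be kept. BHLHE41, a repressor of the circadian clock, stood at 25.3 CPM and 7.95 CPM, a ratio of 0.314 (interval 0.258 to 0.380), and no other of 18 kept clock genes passed 1.5-fold. Of 17 other nuclear receptors kept, NR5A2, a regulator of gut and bile acid genes, was the only one past 1.5-fold, at 0.395 times the control (interval 0.298 to 0.519). HMGA2, a chromatin protein of embryonic tissue and tumours, stood at 143 CPM and 64.1 CPM, a ratio of 0.449 (interval 0.418 to 0.482). FST, which captures activin, stood at 127 CPM and 57.9 CPM, a ratio of 0.457 (interval 0.424 to 0.492). The noncoding RNA OIP5-AS1 stood at 145 CPM and 47.0 CPM, a ratio of 0.323 (interval 0.299 to 0.349). Whether counting used the strand is unknown here, so reads of an antisense RNA and of its partner gene cannot be told apart.

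Other genes lower past 2-fold had varied roles. LYPLA1, which removes palmitate from proteins, was among the most abundant, at 278 CPM and 111 CPM, a ratio of 0.398 (interval 0.378 to 0.420). MMP1, an interstitial collagenase, stood at 174 CPM and 59.9 CPM, a ratio of 0.345 (interval 0.321 to 0.370). IL1RL1, the receptor of interleukin-33, stood at 88.3 CPM and 38.5 CPM, a ratio of 0.436 (interval 0.398 to 0.478). The ubiquitin ligase TRIM31, the factors SOX21, ETV1 and ZBTB41, the kinase TNIK, the receptor EPHB6, the peroxisomal carrier SLC25A17, PYROXD1 and CPNE8 had ratios from 0.226 to 0.438. SSPN, GSDMC and the inositol carrier SLC2A13 had ratios of 0.475, 0.476 and 0.490. ACSM3, HR, FRY, SGK2, OLMALINC, FAM72D, SEPT7, NUP160 and MAD2L2, named after their values were seen, had ratios from 0.453 to 0.495. SEPT7, a septin of the cytoskeleton, had the highest level of these, at 310.0 CPM and 153 CPM.

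**Figure D2:**
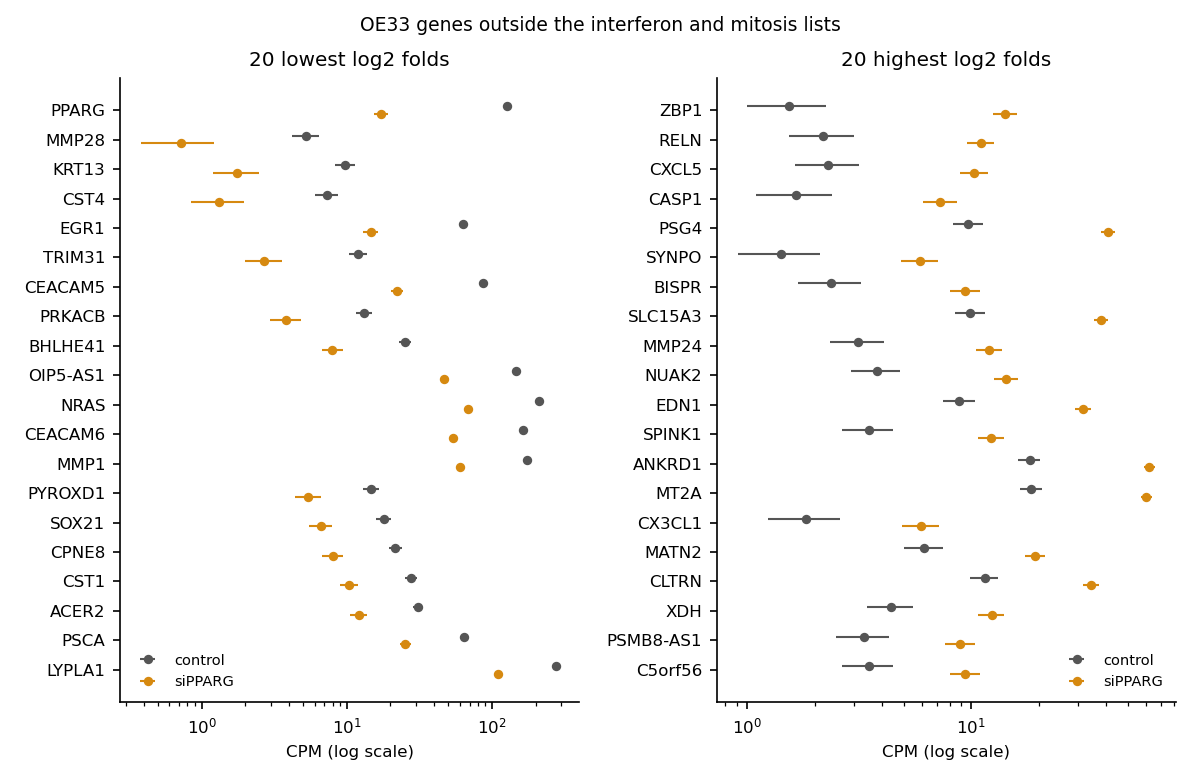
CPM (log scale) in the control (grey) and siPPARG (orange) library for the 20 lowest and 20 highest log2 folds among kept genes outside the interferon and mitosis lists, with exact Poisson 95% intervals that cover counting error only. Each pair of intervals is separate, from PPARG at 127 and 17.3 CPM to C5orf56 at 3.49 and 9.39 CPM.

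On the higher side outside the interferon list stood the chemokines. Chemokines are secreted attractants of white blood cells. All 10 kept chemokines were higher in siPPARG, 7 past 1.5-fold and 4 past 2-fold. Over all kept genes these shares were 48.7%, 3.26% and 1.04%. Among the 10, CX3CL1 and CXCL5 passed the level filter through siPPARG alone, so they had to be higher to be kept. The median log2 fold of the 10 chemokines was 0.82. All 16 listed chemokines in the count table, kept or not, summed to 835 CPM in the control and 1462 CPM in siPPARG. CXCL8, a neutrophil attractant, stood at 200.2 CPM and 415 CPM, 2.07-fold the control (interval 1.99 to 2.16). CX3CL1, a membrane-bound chemokine, held 31 and 108 counts, 3.26-fold (interval 2.17 to 5.03).

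CXCL1, PPBP, CXCL5, CXCL3 and CXCL2 are successive kept genes on chromosome 4, and all were higher past 1.5-fold, the longest such run of either direction. CXCL1 stood at 268 CPM and 476 CPM, 1.78-fold (interval 1.71 to 1.84), and CXCL3 at 95.3 CPM and 162 CPM, 1.70-fold (interval 1.60 to 1.81). CXCL2 stood at 47.9 CPM and 109 CPM, 2.28-fold (interval 2.10 to 2.48). CXCL5 rested on 39 and 187 counts, 4.48-fold (interval 3.16 to 6.5), and PPBP on 60 and 105, 1.64-fold (interval 1.18 to 2.29). CXCL5 and PPBP joined the run as genes kept through siPPARG alone. The promoters of 4 of these genes are shown because they share an NF-kB type motif, the binding letters of the factor family through which inflammatory signals act. Capitals mark the motif, searched as GGG, any 2 bases and TTTCC, and each stretch is 70 bases of the RefSeq window on GRCh38.p14, read along the gene's own strand.
CXCL1, chr4:73869284-73869353, plus strand: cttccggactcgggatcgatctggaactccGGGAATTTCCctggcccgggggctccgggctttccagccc
CXCL5, chr4:73998729-73998798, minus strand: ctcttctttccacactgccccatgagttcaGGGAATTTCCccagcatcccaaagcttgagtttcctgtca
CXCL3, chr4:74038729-74038798, minus strand: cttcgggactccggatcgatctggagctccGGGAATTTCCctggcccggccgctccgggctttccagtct
CXCL2, chr4:74099234-74099303, minus strand: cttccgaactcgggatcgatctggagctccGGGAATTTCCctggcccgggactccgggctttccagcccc
All 4 carry the same 10 letters, 78 to 91 bases before the start. Searched on both strands, the motif occurs in 1.91% of 35116 windows and in 3.05% of the 8632 kept genes matched to a window. Of 8 kept chemokines with a window, CXCL1, CXCL2, CXCL3, CXCL5 and CXCL6 hold it, and CCL22, CCL28 and CXCL8 do not hold these letters in this window. Among all matched genes past 2-fold, 5 of 76 higher and 2 of 30 lower genes hold it. A match describes the letters and is no evidence of binding.

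Cytokines and inflammatory mediators were more mixed than chemokines. Of 12 kept cytokines, 9 were higher and 3 lower (48.7% and 51.3% of all kept genes), with a median log2 fold of 0.29. CSF1, the macrophage growth factor, stood at 14.8 CPM and 34.4 CPM, 2.33-fold (interval 2.01 to 2.71). TNFSF10, the death ligand TRAIL, which is also in the interferon list, stood at 18.5 CPM and 42.5 CPM, 2.30-fold (interval 2.01 to 2.63). IL23A held 45 and 100 counts, 2.08-fold (interval 1.45 to 3.02), and passed the level filter through siPPARG alone. TNFAIP3, a brake on NF-kB signalling, stood at 321 CPM and 591 CPM, 1.84-fold (interval 1.78 to 1.90). The 17 kept NF-kB subunits and regulators themselves lay within 1.5-fold, 11 higher and 6 lower. SAA1, an acute-phase protein, stood at 55.6 CPM and 122 CPM, 2.20-fold (interval 2.04 to 2.38), with its neighbour SAA2 at 1.67-fold (interval 1.47 to 1.89). IL36RN and IL1RN, neighbouring genes for antagonists of interleukin receptors, were 2.34-fold (interval 1.91 to 2.87) and 1.53-fold (interval 1.34 to 1.75) the control. ICAM1, which binds white blood cells, stood at 54.8 CPM and 89.3 CPM, 1.63-fold (interval 1.5 to 1.77).

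Genes of inflammatory cell death and of antigen presentation, which overlap the interferon response in what induces them, were also mostly higher. Of 14 kept genes of inflammatory cell death, 12 were higher and 2 lower (48.7% and 51.3% of all kept genes), with a median log2 fold of 0.56. Among these, ZBP1 and CASP1 passed the level filter through siPPARG alone and GSDMC through the control alone. The direction of such genes was fixed by the filter. ZBP1, a sensor of left-handed nucleic acid, had the highest log2 fold of all kept genes, with 26 counts in the control and 257 in siPPARG, 9.24-fold (interval 6.16 to 14.4). CASP1, the inflammasome protease, held 28 and 132 counts, 4.41-fold (interval 2.91 to 6.89). Of the gasdermins, pore-forming proteins, GSDMB stood at 27.2 CPM and 45.8 CPM, 1.68-fold (interval 1.5 to 1.89), and GSDMC at 6.74 CPM and 3.20 CPM, 0.476 times (interval 0.341 to 0.658). All 24 kept antigen presentation genes were higher, 10 past 1.5-fold (48.7% and 3.26% of all kept genes), with a median of 0.52. HLA-F, a non-classical class I gene, stood at 48.4 CPM and 116 CPM, 2.39-fold (interval 2.21 to 2.60), and HLA-B at 881 CPM and 1606 CPM, 1.82-fold (interval 1.79 to 1.86). The peptide transporter gene TAP1 and its neighbour PSMB9, an immunoproteasome subunit, were 1.79-fold (interval 1.71 to 1.87) and 1.81-fold (interval 1.66 to 1.98), while 25 of 30 kept genes of the constitutive proteasome were lower, none past 1.5-fold.

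Outside the interferon list, 7 of 45 higher genes with a promoter window hold the core of an interferon-stimulated response element, searched on both strands as GAAA, any 2 bases and GAAA again. The letters occur in 3.57% of all windows and in 3.99% of matched kept genes, in 27 of 76 higher genes past 2-fold in all and in 2 of 30 lower ones. Windows of 2 of the 7 are shown, since these genes were higher without being in the interferon list. TMEM140, named after its values were seen, stood at 7.98 CPM and 16.8 CPM, 2.11-fold (interval 1.71 to 2.60). Capitals mark the element, which in HLA-F lies on the opposite strand and so reads TTTC, 2 bases and TTTC.
TMEM140, chr7:135147989-135148058, plus strand: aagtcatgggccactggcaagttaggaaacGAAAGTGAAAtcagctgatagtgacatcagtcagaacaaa
HLA-F, chr6:29723248-29723317, plus strand: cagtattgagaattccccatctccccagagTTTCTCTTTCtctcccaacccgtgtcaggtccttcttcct
The direct repeat of AGGTCA with 1 base between the copies, an idealised binding sequence of PPAR with RXR, was searched on both strands and occurs in 0.0228% of all windows and in none of the 76 higher or 30 lower genes with a window. That says only that these exact letters are not in these windows.

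Several further genes higher past 2-fold came from different lists. The list of the Hippo pathway and its targets held 15 higher and 8 lower kept genes, with a median log2 fold of 0.074. ANKRD1 and CCN1, textbook targets of the Hippo pathway effector YAP, were higher past 2-fold, as was F3. ANKRD1 stood at 18.2 CPM and 62.4 CPM, 3.43-fold (interval 3.02 to 3.90), and CCN1 at 92.2 CPM and 198 CPM, 2.15-fold (interval 2.02 to 2.28). F3, tissue factor, which starts clotting, was the most abundant gene past 2-fold, at 1153 CPM and 2472 CPM, 2.14-fold (interval 2.11 to 2.18). No other of the 23 kept Hippo genes passed 1.5-fold, and YAP1 itself lay at 0.797 times the control (interval 0.765 to 0.830). EDN1, the vasoconstrictor endothelin, stood at 8.86 CPM and 31.7 CPM, 3.57-fold (interval 2.98 to 4.30), and ADM, the vasodilator adrenomedullin, at 17.7 CPM and 38.2 CPM, 2.16-fold (interval 1.88 to 2.48). The kinase NUAK2, which acts on actin tension, held 64 and 260 counts, 3.80-fold (interval 2.88 to 5.07), and SYNPO, an actin-binding protein, 24 and 107 counts, 4.17-fold (interval 2.66 to 6.79). NUAK2 and SYNPO passed the level filter through siPPARG alone, so they had to be higher to be kept. TGM2, which crosslinks proteins, stood at 87.0 CPM and 209.9 CPM, 2.41-fold (interval 2.27 to 2.56).

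RELN, a large extracellular glycoprotein, held 37 and 200 counts, 5.05-fold (interval 3.54 to 7.39). SPINK1, a trypsin inhibitor, held 59 and 222 counts, 3.52-fold (interval 2.63 to 4.77), and the membrane metalloprotease MMP24 53 and 218, 3.85-fold (interval 2.84 to 5.29). RELN, SPINK1 and MMP24 passed the level filter through siPPARG alone, so they had to be higher to be kept. Of 15 kept genes in the group of serine proteases, which also counts F3 and the receptors PLAUR and F2RL1, none of them a protease, 11 were higher, with a median log2 fold of 0.30, among them the epithelial proteases PRSS22 at 1.78-fold (interval 1.66 to 1.91) and PRSS8 at 1.53-fold (interval 1.44 to 1.63). Their inhibitors, a group that does not count SPINK1, were mixed, 3 higher and 5 lower. The serpin SERPINB5 stood at 0.503 times the control (interval 0.449 to 0.564). Metalloproteases split, with MMP24 and ADAMTS9 higher and MMP28, MMP1 and ADAM9 lower past 1.5-fold. Of 8 kept genes of the squamous cornified envelope 6 were higher, including the neighbours SPRR3 at 1.54-fold (interval 1.34 to 1.77) and SPRR1B at 1.94-fold (interval 1.64 to 2.30). Among squamous keratins KRT16 was higher at 2.03-fold (interval 1.68 to 2.47), whereas KRT13 was lower, as given above. No gene among 29 kept junction genes passed 1.5-fold.

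SLC15A3, a lysosomal carrier of histidine and peptides, stood at 9.87 CPM and 37.9 CPM, 3.84-fold (interval 3.24 to 4.58), and CTSS, a lysosomal protease, at 40.4 CPM and 82.4 CPM, 2.04-fold (interval 1.86 to 2.24). Of 33 kept lysosome and autophagy genes, 26 were higher and 7 lower, with a median log2 fold of 0.12, and CTSS was the only one higher past 1.5-fold. Other genes higher past 2-fold, named after their values were seen, included MATN2, CLTRN, XDH, GSTM4, C1QTNF6, MAP1LC3A, NEDD9 and HSPB8. MATN2, a matrix protein, was at 3.14-fold (interval 2.51 to 3.94), and CLTRN, a kidney and islet membrane protein, at 2.99-fold (interval 2.54 to 3.53). XDH, which makes uric acid, was at 2.82-fold (interval 2.16 to 3.72), and the rest ranged from 2.15-fold to 2.62-fold.

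**Figure D3:**
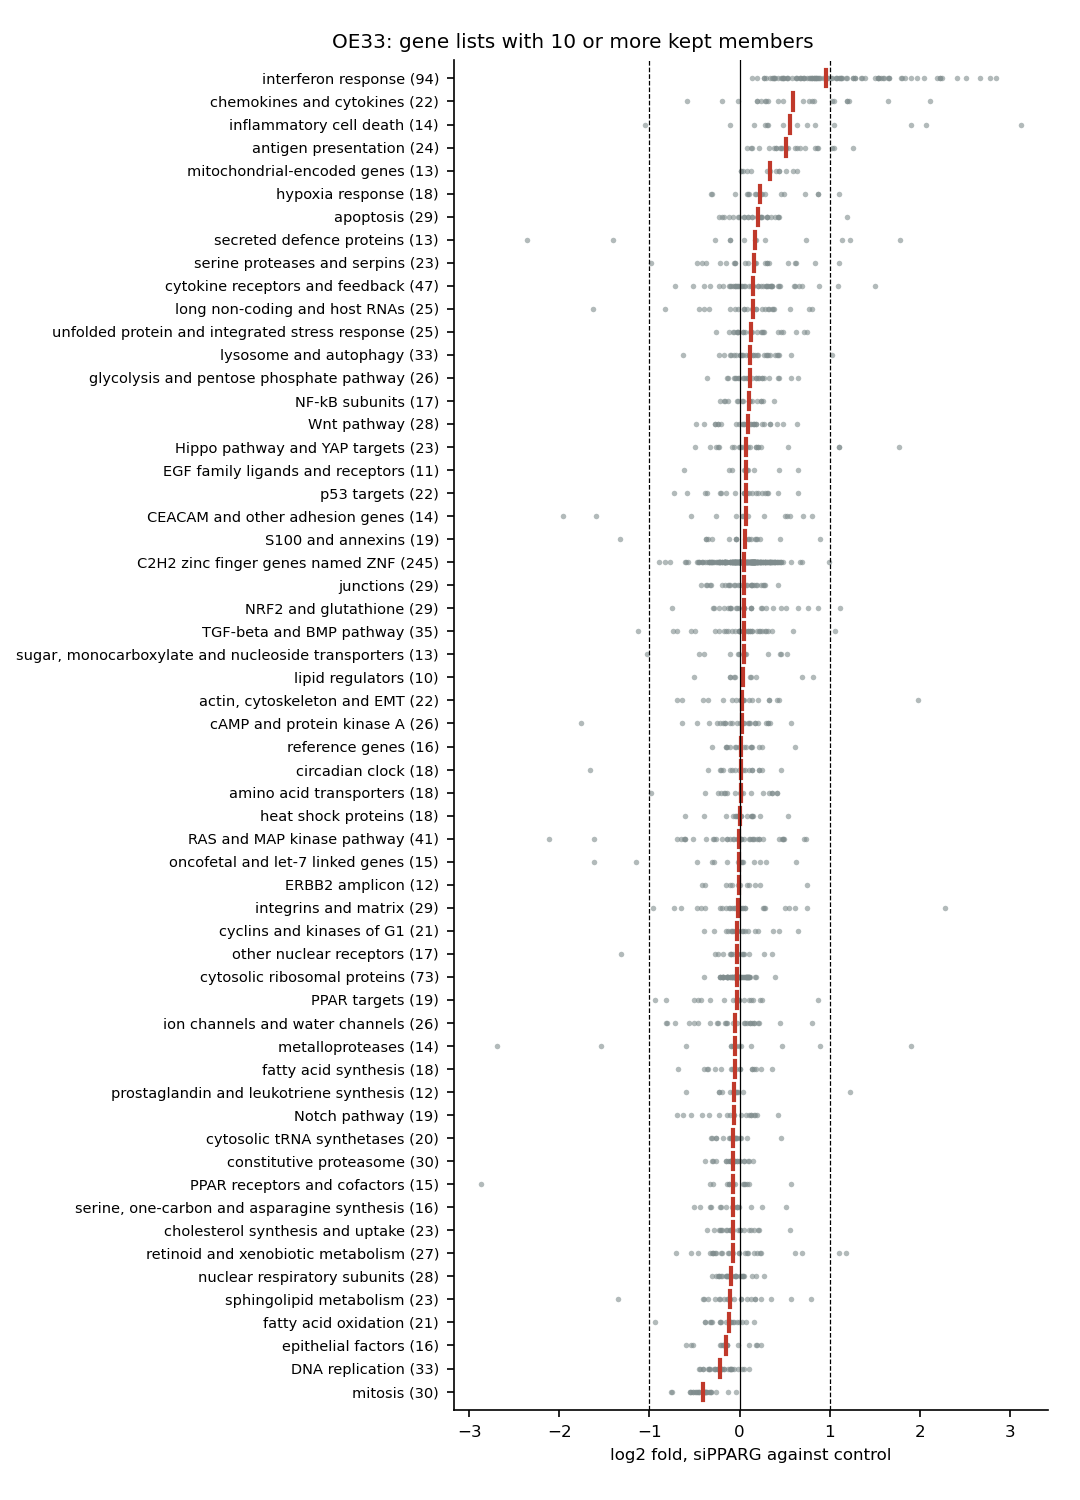
Log2 fold of siPPARG against control in OE33 for the kept members (grey points) of 58 gene lists with 10 or more kept members, with the median of each list as a red bar, the number of kept members in brackets and dashed lines at 2-fold. Medians run from -0.41 (mitosis) to 0.96 (interferon response), beside -0.0075 for all kept genes.

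Of the lipid genes, among which PPARG is known to act, those of fatty acid oxidation were mostly lower. Of 21 kept genes of fatty acid oxidation, 3 were higher and 18 lower, and their median log2 fold was -0.12 against -0.0075 for all kept genes. Of 19 kept PPAR targets, 7 were higher and 12 lower. Over all kept genes, 48.7% were higher and 51.3% lower. AQP3, a channel for water and glycerol, stood at 671 CPM and 379.8 CPM, a ratio of 0.566 (interval 0.549 to 0.583), whereas ANGPTL4, an inhibitor of lipoprotein lipase, stood at 5.91 CPM and 10.9 CPM, 1.84-fold (interval 1.44 to 2.37). FABP4 had no count in either library. Of 18 kept genes of fatty acid synthesis, 8 were higher and 10 lower, with SCD5, a desaturase, at 0.619 times (interval 0.540 to 0.709). The fatty acid synthase FASN stood at 352 CPM and 268 CPM, a ratio of 0.762 (interval 0.733 to 0.791). All 23 kept genes of cholesterol synthesis and uptake lay within 1.5-fold, 10 higher and 13 lower, and of 10 kept lipid regulators 5 were higher and 5 lower. ABCA1, which exports cholesterol, was higher at 1.77-fold (interval 1.53 to 2.04), and so was INSIG1, which restrains sterol synthesis, at 1.62-fold (interval 1.49 to 1.75).

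Lipid mediators showed isolated differences. Of 12 kept genes of prostaglandin and leukotriene synthesis, 10 were lower and 2 higher. PTGS2, the inducible cyclooxygenase COX-2, stood at 49.6 CPM and 116 CPM, 2.34-fold (interval 2.16 to 2.54), while the receptor PTGER4 stood at 10.4 CPM and 6.85 CPM, 0.659 times (interval 0.519 to 0.834). Of 23 kept genes of sphingolipid metabolism, 10 were higher and 13 lower, and ACER2 and SMPD1 passed 1.5-fold. ACER2, an alkaline ceramidase that breaks ceramide down, stood at 31.0 CPM and 12.1 CPM, a ratio of 0.391 (interval 0.332 to 0.458). SMPD1, the acid sphingomyelinase, which releases ceramide, stood at 13.6 CPM and 23.8 CPM, 1.74-fold (interval 1.48 to 2.05).

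The 2 genomes that encode the respiratory chain showed opposite medians. All 13 kept protein-coding transcripts of the mitochondrial genome were higher, 9 with an interval above 1, where 24.8% of kept genes have one, and their median log2 fold was 0.34. MT-CO1, a subunit of cytochrome oxidase, stood at 761 CPM and 1088 CPM, 1.43-fold (interval 1.40 to 1.46). Of 28 kept nuclear subunits, 9 were higher and 19 lower, with 13 intervals below 1 (25.8% of kept genes) and a median of -0.098, for example SDHA at 0.806 times (interval 0.771 to 0.843). Mitochondrial transcripts as a share of all counts differed in the same direction as given for the libraries, and whether this reflects the culture or RNA quality was not tested.

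Metal and redox genes differed in both directions. FTH1, the heavy chain of the iron store ferritin, stood at 4485 CPM and 7017 CPM, 1.56-fold (interval 1.55 to 1.58), and TXNRD1, thioredoxin reductase, at 914 CPM and 1305 CPM, 1.43-fold (interval 1.40 to 1.46). MT2A, a metallothionein that binds zinc and copper, stood at 18.5 CPM and 60.5 CPM, 3.27-fold (interval 2.88 to 3.72), and its neighbour MT1E at 1.62-fold (interval 1.41 to 1.86). Of 29 kept NRF2 and glutathione genes, 17 were higher and 12 lower, AKR1B1 lowest at 439 CPM and 262 CPM with a ratio of 0.595 (interval 0.574 to 0.618). Of 18 kept hypoxia genes 15 were higher (48.7% of all kept genes), with a median of 0.23. Among them was NDRG1, a stress-induced protein, at 1.65-fold (interval 1.60 to 1.71). Glycolysis leaned the same way, with 18 of 26 higher and PFKFB3, which speeds glycolysis, at 1.57-fold (interval 1.51 to 1.63). Of 20 kept cytosolic tRNA synthetases 16 were lower, none past 1.5-fold, and WARS, also in the interferon list, was highest at 1.38-fold (interval 1.30 to 1.46).

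Of 33 kept DNA replication genes, 30 were lower, none past 1.5-fold, with a median of -0.22, beside the mitosis list at 30 of 30 lower and a median of -0.41. CDKN1A, the cell cycle inhibitor p21, stood at 103 CPM and 161 CPM, 1.56-fold (interval 1.47 to 1.66), while MDM2, another p53 target, lay at 0.764 times (interval 0.706 to 0.826). All 7 kept histone genes of the replication-dependent clusters were higher, for example the neighbours HIST1H2AC at 1.84-fold (interval 1.58 to 2.14) and HIST1H2BD at 1.79-fold (interval 1.42 to 2.28). They were at low level, since all 89 such histone genes in the count table, kept or not, summed to 78.2 CPM and 123 CPM. Of 16 kept epithelial transcription factors 12 were lower (51.3% of all kept genes). FOXA2, a gut endoderm factor, was the only one of these past 1.5-fold, at 0.659 times (interval 0.556 to 0.781). Of 19 kept Notch genes, HES1, a Notch target, stood at 56.3 CPM and 34.9 CPM, 0.619 times (interval 0.559 to 0.685), and LFNG, which modifies Notch, at 0.648 times (interval 0.561 to 0.748). In the BMP pathway the ligand BMP2 was higher at 1.51-fold (interval 1.31 to 1.74), while the target ID1 stood at 305 CPM and 183 CPM, 0.601 times (interval 0.575 to 0.628). AXIN2, a Wnt target, was the only one of 28 kept Wnt genes past 1.5-fold, at 1.57-fold (interval 1.21 to 2.03). Of 29 kept apoptosis genes 22 were higher, and TNFSF10, also in the interferon list, alone passed 1.5-fold.

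Measured in CPM rather than in folds, other genes led. Summed over all kept genes, siPPARG gained 71208 CPM and had summed losses of -64640 CPM, and the interferon list accounted for 15.8% of the gain. FTH1 alone gained 2533 CPM, 3.56% of the total gain, followed by F3 with 1319 CPM and the receptor kinase MET with 891 CPM, at 1.15-fold (interval 1.14 to 1.16). H1F0, a linker histone, gained 571 CPM at 1.53-fold (interval 1.5 to 1.56). On the other side IGFBP3, which binds insulin-like growth factors, changed by -1289.8 CPM at 0.758 times the control (interval 0.750 to 0.765). HMGA1, an abundant chromatin protein, changed by -949.9 CPM at 0.719 times (interval 0.710 to 0.728). EREG, a ligand of the EGF receptor, changed by -869 CPM at 0.651 times (interval 0.641 to 0.661), while the receptor gene EGFR lay at 1.05-fold (interval 1.02 to 1.08). ALDH1A3, which makes retinoic acid, changed by -723 CPM at 0.824 times (interval 0.815 to 0.833). Of these genes only F3 was past 2-fold.

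**Figure D4:**
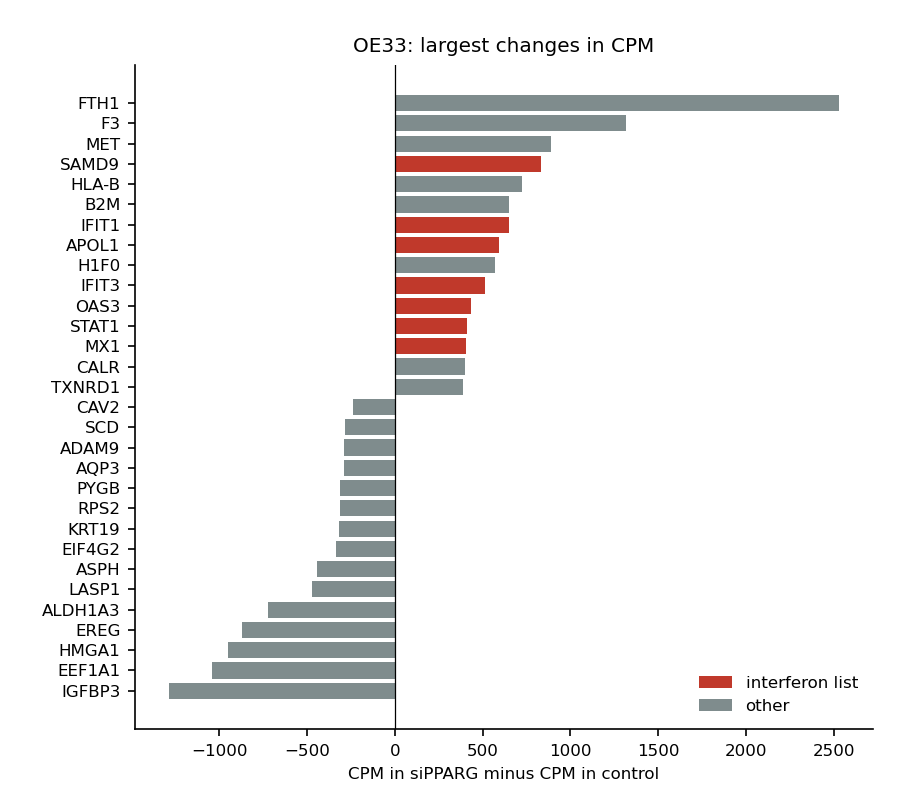
CPM in siPPARG minus CPM in control for the 15 largest gains and 15 largest losses among kept OE33 genes (bars from 0), interferon list in red and other genes in grey. FTH1 reaches 2533 CPM and F3 1319 CPM, and IGFBP3 reaches -1289.8 CPM.

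Placed in RefSeq gene order, 10505 kept genes could be checked for neighbours past 1.5-fold in the same direction. On the higher side 86 of 340 genes lay in 38 runs of successive kept genes, and on the lower side 13 of 251 genes in 6 runs. Of all kept genes, 3.26% were higher and 2.38% lower past 1.5-fold. How many runs would arise without any link between neighbours was not computed, so no clustering is read from these counts. Of the 38 runs, 11 held only genes of the interferon list and 18 held none of that list. Being outside the list does not place a gene outside the interferon response. Runs without a gene of the list held gene families already named, such as the CXCL genes, SAA2 with SAA1 and MT2A with MT1E. They also held neighbours that are no family, such as B2M with TRIM69, BEST1 with FTH1, PRICKLE2 with ADAMTS9 and PAX8 with its antisense PAX8-AS1. Lower runs included CEACAM5 with CEACAM6, CST4 with CST1, and ALG10, ALG10B and CPNE8. Overlapping or similar neighbours can share reads, which was not tested.

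Set beside the other line, the OE33 differences past 2-fold had small Eso26 counterparts, and in Eso26 the PPARG transcript itself had a ratio of 0.843 (interval 0.698 to 1.02). Of the 110 higher genes, 55 were kept in Eso26, 30 higher and 25 lower there (48.6% and 51.4% of kept Eso26 genes), and their median was 0.044. At 1.5-fold, where 1.25% of kept Eso26 genes were higher and 1.15% lower, 1 of the 55 was higher and 3 were lower. Of the 44 lower genes, 25 were kept in Eso26, 19 lower and 6 higher, and EGR1, CEACAM6 and HMGA2 were lower past 2-fold in both lines (0.144% of kept Eso26 genes). EGR1 had log2 folds of -2.11 in OE33 and -1.06 in Eso26, CEACAM6 -1.60 and -1.28, and HMGA2 -1.15 and -1.31. The chemokines CXCL1 and CXCL8 lay under the level filter in Eso26, with 23 and 10 counts for CXCL1 and 70 and 36 counts for CXCL8 in control and siPPARG. With 1 library per condition in each line, no difference of effect between the lines was tested.

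**Figure D5:**
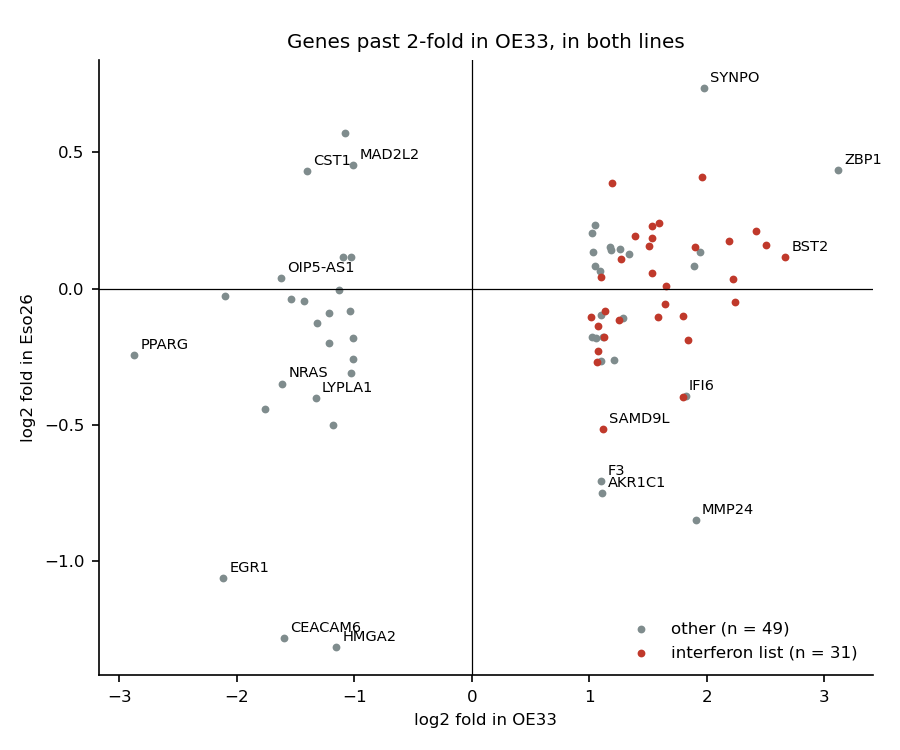
Log2 fold of siPPARG against control in OE33 (horizontal axis) and Eso26 (vertical axis) for the 80 genes past 2-fold in OE33 and kept in both lines, interferon list in red and other genes in grey. Most points lie near 0 on the Eso26 axis, and EGR1, CEACAM6 and HMGA2 lie low on both.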

How the data were processed

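The deposited OE33 table holds whole-number read counts per gene that carry no scaling, per the file headers. Tools named by the submitters' processing notes were STAR, Bowtie, Trim Galore, Picard and MACS2, with the build hg19. Counter, strand setting and annotation were not given in the sources used here.

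The table's 37533 rows include 40 repeats of an identifier, summed to 37493, of which 37402 matched a symbol table. Counts were scaled by TMM (edgeR 4.0.16, R 4.3.3), and log2 folds are differences of log2 CPM (prior count 2). The level filter was 5 CPM in either library. The call was 2-fold, since 1 library per condition allows no test and no p-value. Ratios carry exact conditional binomial 95% intervals and CPM exact Poisson ones (scipy 1.17.1). Both cover counting error only, and library totals of 16866996 and 18163767 counts set their width. The fold computation was tested on simulated data.

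Named genes were PPARG, the 30 highest and 30 lowest log2 folds, the 15 largest CPM changes each way, the 6 most different members of every list, members of roles of up to 6 genes, the cell type markers, and neighbours past 1.5-fold. Others are said to be named after their values were seen. The members and lists were chosen with earlier results of these data known. RefSeq tables on GRCh38.p14 gave gene order and promoter windows only. Peak lists on hg19 were left out, since no annotation of that build was used. Scaling, prior count, level filter, fold threshold, interval call, repeats and list membership were varied. Values of some genes that met the naming rule are not reported here.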

Additional observations from a re-analysis of the deposited data

Results flagged for a closer look

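The genes F3, AKR1C1 and MMP24 were higher past 2-fold in OE33 siPPARG and lower past 1.5-fold in the Eso26 library labelled siPPARG. F3, tissue factor, had a log2 fold of 1.10 in OE33 and -0.71 in Eso26. AKR1C1, a keto-reductase of steroids and prostaglandins, had 1.11 in OE33, from 41 and 97 counts, and -0.75 in Eso26. MMP24 had 1.91 in OE33 and -0.85 in Eso26. In OE33, AKR1C1 and MMP24 passed the level filter through siPPARG alone, so they had to be higher there to be kept. Each line had 1 library per condition, so the difference between the lines was not tested.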

How the results depend on the processing

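The 110 higher and 44 lower genes past 2-fold became 108 and 45 without a scaling factor, 115 and 41 with relative log expression scaling, 114 and 45 with a prior count of 0.5, 105 and 43 with a prior count of 5, 89 and 37 with a filter of 10 CPM and 77 and 34 with 5 CPM required in both libraries. Keeping repeats apart left 110 and 44. Larger shifts came with a filter of 1 CPM (205 and 84), no filter (547 and 584), a threshold of 1.5-fold (343 and 251) or 3-fold (36 and 12), and a counting interval wholly past 2-fold (70 and 28). Without a filter the lower genes outnumber the higher ones, because many genes with few counts enter. The PPARG ratio stayed between 0.135 and 0.138. Leaving out the antigen presentation, chemokine and inflammatory cell death lists too left 54 of the 65 higher and 43 of the 44 lower genes outside the interferon and mitosis lists. Scaling shifted log2 folds by at most 0.0156, which turned the sign of 6 list medians near 0: heat shock proteins (without a factor), and the ERBB2 amplicon, RAS and MAP kinase, integrin and matrix, keratin and oncofetal lists (relative log expression). No paired analysis was possible because each condition has 1 column with no replicate number. Depth limits genes of low level most, as their wide intervals show.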
